A study of Mus musculus with 6 samples.

Results

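The interferon-inducible GTPases were described in RAW264.7 cells, a mouse macrophage line, with and without an shRNA against Trem2. In each group the cells had been kept in the cytokine interleukin-4 and then given debris of mouse kidney tubular cells. The 10 genes were taken by name: 5 guanylate-binding protein genes (Gbp2, Gbp3, Gbp5, Gbp7 and Gbp9) and 5 immunity-related GTPase genes (Irgm1, Irgm2, Igtp, Ifi47 and Iigp1), of 56092 gene symbols in the tables. Of these, 5 (Irgm1, Irgm2, Igtp, Ifi47 and Gbp9) were well detected in every library, and each had more counts in every one of the 3 shTrem2 libraries than in any of the 3 shNC libraries, as did 32.1% of all 13528 tested genes. Their differences ran from 1.62-fold for Gbp9 to 2.62-fold for Irgm1. The other 5 (Gbp2, Gbp3, Gbp5, Gbp7 and Iigp1) were at 17 counts or fewer in each shNC library and higher in each shTrem2 library, and 4 of them entered the test only through their level in shTrem2. Gbp2 did not pass the low-count filter.

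Both families are GTPases that cells make in large amounts after interferon-gamma and, to differing degrees, after type I interferon. Guanylate-binding proteins (GBPs) coat bacteria and the membranes of vacuoles that hold intracellular pathogens and help to start inflammasome signalling. Immunity-related GTPases (IRGs) load onto such vacuoles and disrupt them, while the regulatory IRGM class (Irgm1, Irgm2 and Igtp) sits on the membranes of the cell itself and keeps the effector IRGs inactive there. In macrophages such genes are usually low at rest and are widely used as markers of a response to interferon.

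The control group was RAW264.7 cells with a negative-control shRNA (shNC, n = 3 libraries), and the other group carried an shRNA against Trem2 (shTrem2, n = 3). Both groups were kept in 20 ng/ml of the cytokine interleukin-4 (IL-4) during 24 hours and were then given debris of TCMK-1 cells, a mouse kidney tubular line, for a further 24 hours. Per the study's methods, the shRNAs came in a lentiviral vector that also carried GFP, and stable cells were selected, so an effect of the shRNA and a difference between the selected cell populations cannot be told apart. The labels do not say which of the study's shRNAs was used or whether the 3 libraries of a group came from separate cultures, so p-values measure only the spread between these libraries.

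Named counts per library ran from 15876061 to 19655158, and a first principal component with 71.03% of the variance separated the groups. Trem2 itself was lower in shTrem2 (1835, 2204 and 2615 counts in shNC and 1241, 1209 and 1557 in shTrem2, log2 fold change -0.87, FDR = 3.39e-06). The deposited FPKM of Trem2 differed more, at 178 ± 28.5 in shNC and 41.7 ± 4.14 in shTrem2 (SD, n = 3). Macrophage markers were present, and 10 of 10 were tested, with 8 higher, 2 lower (Itgam, log2 fold change -0.78, and Adgre1, -0.56) and a summed level of 5583 to 6581 CPM (counts scaled to library size) in shNC against 10690 to 12090 in shTrem2, mostly of Lyz2 (log2 fold change 1.39). Several usual products of IL-4-treated macrophages were missing: Arg1 (arginase 1) had 2, 2 and 2 counts in shNC and 1, 3 and 1 in shTrem2, and Chil3, Retnla and Ccl24 were at 0 in all 6 libraries, although the series describes Arg1+ cells. Of 10 genes of the IL-4 response, 4 were tested: the mannose receptor Mrc1 (log2 fold change 2.76, from 5, 14 and 6 to 62, 71 and 56 counts) and Stat6 (0.28) were higher, the receptor Il4ra was lower (-1.37), and Irf4 was not called. Of 14 tubular epithelial markers, 8 were at 0 in every library, Epcam, Cdh1, Krt8 and Umod among them, and the summed level of the 14 was 0.880 to 1.43 CPM in shNC and 2.22 to 2.82 CPM in shTrem2, where 1 marker was tested (Aqp1, with 12, 6 and 5 counts in shNC and 38, 50 and 39 in shTrem2). Mrc1 and Aqp1 entered the test through their level in shTrem2, so they had to differ. The part of either marker list in the results below was not tested. In bulk samples, fewer cells with a transcript and less of it per cell cannot be told apart.

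Promoter sequence is shown because interferon receptors act on these genes through short DNA elements. An ISRE core (GAAANNGAAA, searched on both strands, from the interferon-stimulated response element) and a GAS core (TTCNNNGAA, which reads the same on both strands, from the gamma-activated site) were looked for in the 250 bases before each RefSeq start (build GRCm38.p6). A window was found for 8 of the 10 genes, with 2 starts for Gbp3. The ISRE core was present for 7 of these 8 genes (Irgm1, Irgm2, Igtp, Gbp2, Gbp3, Gbp5 and Gbp7) and the GAS core for 4 (Irgm2, Igtp, Gbp5 and Gbp7). Among 32851 windows of the same length over the genome, 2.98% held the ISRE core, 7.02% the GAS core and 0.332% both. The Ifi47 window held neither, which says only that these letters are not in it. Stretches around the matches are printed 5′ to 3′ on the strand of the gene, with the matched letters in capitals. The first 2 are the neighbouring IRGM genes Igtp (chr11:58199501-58199541, plus strand) and Irgm2 (chr11:58214892-58214932, plus strand), the next is the related gene Tgtp2 for comparison (chr11:49064263-49064303, minus strand), and then come Irgm1 (chr11:48871425-48871460, minus strand), Gbp3 (chr3:142559989-142560024), Gbp7 (chr3:142530220-142530302) and Gbp2 (chr3:142620594-142620623), the last 3 on the plus strand.
Igtp: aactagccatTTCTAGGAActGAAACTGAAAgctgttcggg
Irgm2: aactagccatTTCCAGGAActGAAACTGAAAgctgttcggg
Tgtp2: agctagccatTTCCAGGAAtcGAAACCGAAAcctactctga
Irgm1: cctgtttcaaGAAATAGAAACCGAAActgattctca
Gbp3: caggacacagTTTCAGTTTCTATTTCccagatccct
Gbp7: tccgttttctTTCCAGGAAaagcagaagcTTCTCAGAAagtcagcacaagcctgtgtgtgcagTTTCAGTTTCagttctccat
Gbp2: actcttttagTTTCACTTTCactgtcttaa

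In Igtp and Irgm2 the GAS core was followed after 2 bases by the ISRE core, and 40 of the 41 bases shown were identical. Tgtp2 had the same pair at the same spacing and matched Igtp at 31 of 41 bases. The 2 ISRE matches of Irgm1 overlapped, as did the 2 of Gbp3. In the IRG genes printed here the GAAA letters lay on the strand of the gene, and in the printed GBP genes they lay on the opposite strand. The map of these matches shows their distance from each start.

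**Figure D1:**
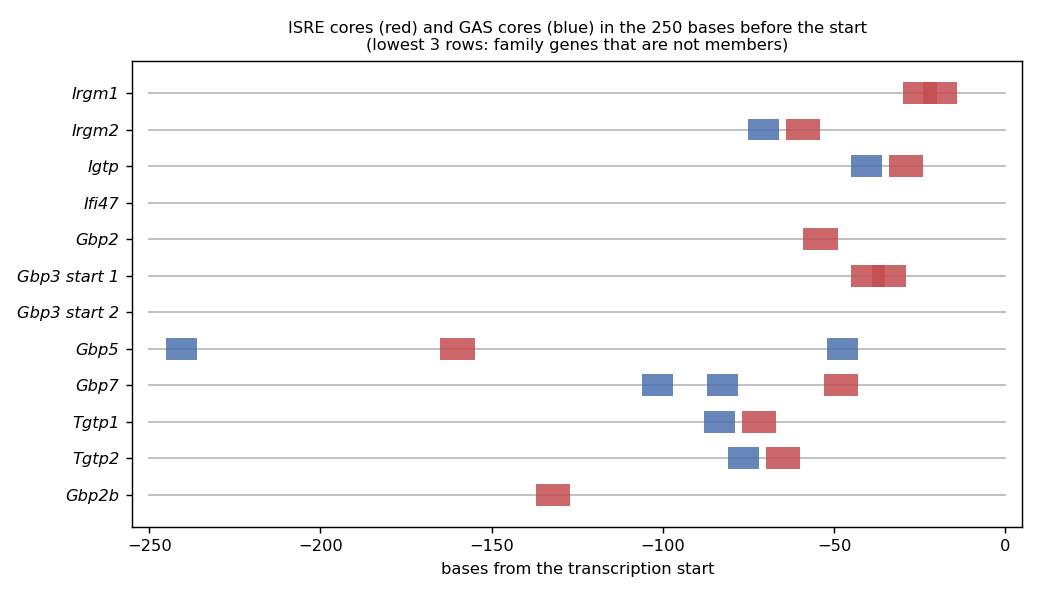
Matches of the ISRE core (red) and the GAS core (blue) in the 250 bases before the RefSeq start, by gene, with the distance from the start in bases on the x axis. The ISRE core lies nearest to the start in Irgm1, at 24 bases, and the GAS and ISRE cores stand side by side in Irgm2, Igtp, Tgtp1 and Tgtp2.

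Of the 10 genes, 5 passed the low-count filter (0.534 CPM) in all 6 libraries: Irgm1, Irgm2, Igtp, Ifi47 and Gbp9. Gbp3, Gbp5, Gbp7 and Iigp1 passed only because of their level in shTrem2, so they had to differ, and Gbp2 did not pass. All 5 genes of the first kind were higher at an FDR under 0.05, and all 5 also passed a fold change of 1.5, which together define a differentially expressed gene (DEG) here. Over all 13528 tested genes, 28.8% were called higher and 28.6% lower, and 9.46% were DEGs higher and 12.4% DEGs lower. For 32.1% all 3 shTrem2 libraries lay above all 3 shNC libraries, and for 31.7% they lay below. Groups without overlap were therefore common among all genes in either direction, and a gene described below as not overlapping is read against these shares.

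Irgm1, a regulatory IRG of endosomes, mitochondria and the Golgi apparatus, was the most abundant member per length. It had 545, 625 and 772 counts in shNC and 1884, 1751 and 1969 in shTrem2. The lowest shTrem2 library held more than 2-fold the counts of the highest shNC library. The mean level rose from 37.0 ± 4.75 CPM to 97.1 ± 5.09 CPM (SD, n = 3), a log2 fold change of 1.39 (SE 0.0796, FDR = 9.35e-09).

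Igtp (also named Irgm3) is a regulatory IRG of the endoplasmic reticulum. It had 212, 213 and 251 counts in shNC and 545, 461 and 550 in shTrem2, with no overlap. The log2 fold change was 1.06 (95% interval 0.869 to 1.25, FDR = 7.34e-07), from 12.9 ± 1.02 to 27.0 ± 2.48 CPM. Its neighbour Irgm2, a regulatory IRG chiefly of the Golgi apparatus, had 305, 354 and 404 counts in shNC and 688, 784 and 663 in shTrem2, so the groups stood apart here too. Its log2 fold change was 0.87 (0.695 to 1.04, FDR = 1.78e-06). The 3 regulators thus differed in 1 direction, and the interval of Irgm1 (1.23 to 1.55) lay above that of Irgm2 and overlapped that of Igtp, although no test was made between the genes.

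Ifi47 (IRGD) and Iigp1 (Irga6) belong to the effector IRGs, which bind to pathogen vacuoles. Ifi47 had 132, 167 and 191 counts in shNC and 327, 317 and 333 in shTrem2. The shTrem2 libraries lay close together and all above shNC, with means of 9.32 ± 1.15 and 16.9 ± 0.318 CPM and a log2 fold change of 0.86 (SE 0.11, FDR = 1.77e-05). Iigp1 had 2 counts in each shNC library and 21, 23 and 13 in shTrem2. Its ratio of counts was 8.41 (95% exact interval 3.63 to 23.9, counting error only), the fitted log2 fold change was 3.03 (SE 0.515, FDR = 1.98e-04), and the shNC level lay under the limit of 3 counts per library below which a count cannot be told from 0.

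Among the GBPs, Gbp7, which is known for its part in oxidative host defence, had the largest fitted difference of those tested. It had 6, 5 and 9 counts in shNC and 211, 223 and 204 in shTrem2. The gene was thus barely detected in the control cells and present at 11.1 ± 0.573 CPM in shTrem2, a log2 fold change of 4.83 (SE 0.22, FDR = 1.18e-09). Gbp3, a member of the same gene cluster, had 17, 3 and 8 counts in shNC and 123, 129 and 102 in shTrem2. The shNC libraries differed among themselves by more than 5-fold, but none came near shTrem2. The log2 fold change was 3.49 (SE 0.36, FDR = 2.15e-06, 11.3-fold), and without shNC replicate 1 it was 4.30 (19.7-fold).

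Gbp5, a prenylated GBP linked to NLRP3 inflammasome assembly, had 5, 7 and 4 counts in shNC and 17, 14 and 33 in shTrem2. The groups did not overlap, yet shTrem2 replicate 3 stood well above the other shTrem2 libraries. The log2 fold change was 1.83 (95% interval 0.911 to 2.75, FDR = 0.00431). On the log2(FPKM + 1) scale it was 0.32 with an adjusted p of 0.0512 in limma, over the threshold, where the adjusted p of its alternatives ran from 0.00113 to 0.0512.

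Gbp2, a prenylated GBP of vacuole membranes, had 1, 0 and 0 counts in shNC and 10, 16 and 21 in shTrem2. All shTrem2 libraries were above all shNC libraries, and the ratio of counts was 41.6 with an exact interval of 7.11 to 1680. The interval covers counting error only. Gbp2 was called higher in 6 alternative fits in which it was tested, DESeq2, the fit with no filter beyond 1 count and 4 fits with 1 library left out, with adjusted p from 4.48e-07 to 0.00182. In the 4 fits with 1 library left out it passed the filter only through shTrem2, so it had to differ there. Gbp9, which lies in another gene cluster, differed least of the tested genes. It had 114, 100 and 120 counts in shNC and 200, 180 and 219 in shTrem2, again without overlap. The log2 fold change was 0.70 (95% interval 0.428 to 0.965, FDR = 6.54e-04), from 6.41 ± 0.785 to 10.4 ± 0.94 CPM.

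**Figure D2:**
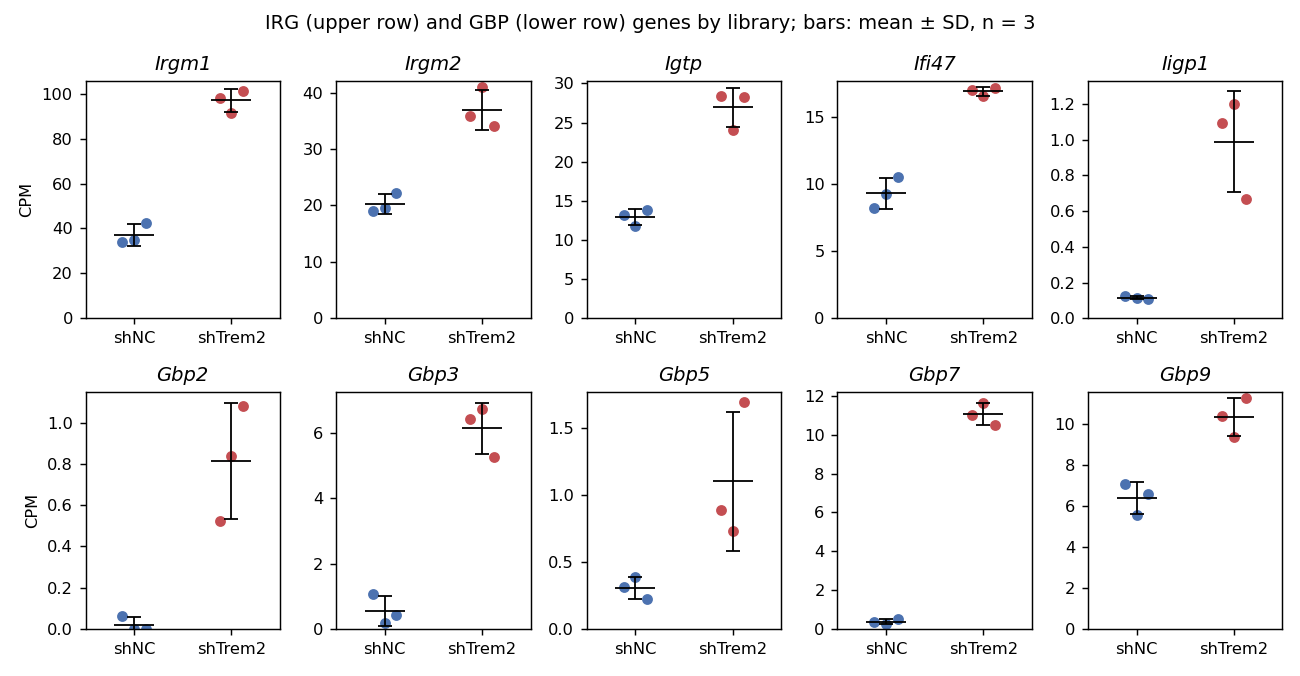
CPM of each of the 10 genes (y axis, from 0, a scale for each gene) in the 3 shNC (blue) and 3 shTrem2 (red) libraries, with the mean and SD as bars. The red points lie above the blue points in every panel, from 37.0 against 97.1 CPM for Irgm1 to 0.0207 against 0.813 CPM for Gbp2.

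Levels of different genes were compared per length, as FPKM. In shNC the order was Irgm1 (20.1 ± 2.42 FPKM, n = 3), Igtp (7.68 ± 0.555), Ifi47 (6.51 ± 0.777), Irgm2 (6.44 ± 0.512), Gbp9 (1.47 ± 0.142) and then Gbp3, Gbp5, Gbp7, Iigp1 and Gbp2, which were at or under 0.373. The libraries of Igtp overlapped with those of Ifi47, and those of Ifi47 with those of Irgm2, so the order of these neighbours is not fixed. In shTrem2 Irgm1 stood at 51.4 ± 2.60, Igtp at 15.7 ± 1.49, Ifi47 at 11.9 ± 0.16 and Irgm2 at 11.5 ± 1.08 FPKM, and here Igtp stood apart from Ifi47 while Ifi47 and Irgm2 overlapped. Gbp3 (2.68 ± 0.135), Gbp9 (2.38 ± 0.235) and Gbp7 (2.37 ± 0.275) followed with overlapping libraries. Gbp5, Iigp1 and Gbp2 were at 0.390, 0.373 and 0.360 FPKM, also overlapping. Gbp7 and Gbp3 therefore reached the level of Gbp9 in shTrem2, from a level far under it in shNC. Irgm1 alone held 45.8% to 47.9% of the summed FPKM of the 10 genes in shNC and 50.8% to 52.9% in shTrem2.

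Each symbol had between 2 and 7 transcript rows in the count table, which carry no transcript name and are numbered here in the order of the table. For Irgm2 the share of row 3 was 3.43%, 6.25% and 6.53% in shNC and 17.7%, 36.5% and 32.8% in shTrem2. These shares did not overlap, while an exact two-sided permutation test of 3 against 3 cannot go below p = 0.1. Row 2 of Igtp did not overlap either, with 0% in each shNC library and 8.95%, 4.48% and 4.03% in shTrem2. How often rows of all genes separate in this way was not computed. Other genes divided differently in 1 library: row 1 of Ifi47 held 57.8% in shTrem2 replicate 2 and at most 12.7% in the other libraries, and row 1 of Gbp9 held 26.0% in shNC replicate 1 and 58.9% to 67.2% elsewhere. Irgm1 kept 42.7% to 54.9% in row 1 in every library. For Iigp1 the 21 counts of shTrem2 replicate 1 were all given to row 1, a row that held 0 counts in the other 5 libraries, so the rows of this low gene cannot be compared. Totals per gene were little touched by these divisions, since the effective length of the 5 genes with enough counts differed between groups by -0.04 to 0.00 on the log2 scale.

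**Figure D3:**
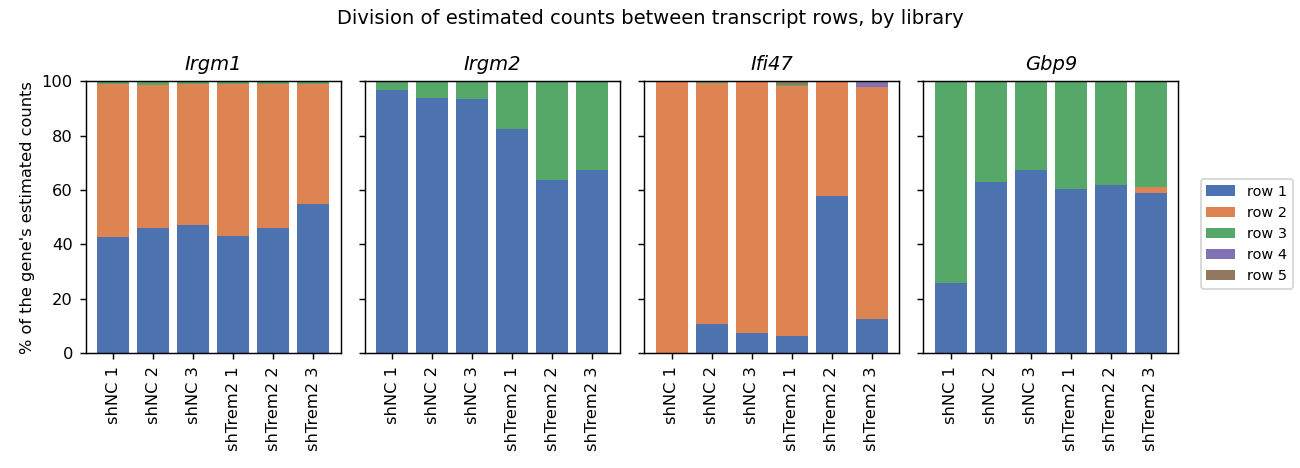
Share (%) of the estimated counts of Irgm1, Irgm2, Ifi47 and Gbp9 in each transcript row (colours), by library. Row 3 of Irgm2 takes 3.43% to 6.53% in shNC and 17.7% to 36.5% in shTrem2, and single libraries stand apart for Ifi47 and Gbp9.

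Reads of near-identical paralogs can be divided wrongly between genes. In GENCODE M21, no 150-base window of the longest coding transcript of Gbp2, Gbp3, Gbp5, Gbp9, Irgm1, Irgm2, Iigp1 or Ifi47 was shared with another gene, against 0.85% of the windows of Igtp and 8.93% of Gbp7. Sums over the paralogs of a class, which a division within the class does not touch, had a log2 ratio of 3.73 for the chromosome 3 GBPs, 0.39 for the chromosome 5 GBPs and 1.20 for the IRGM class. Genes outside the sums that share windows, Gm43802 with Gbp7 and Gm43302 with Gbp6 and Gbp10, could still take or give reads.

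The other genes of the families were not as uniform. Of 20 listed, 17 were in the tables and 8 were tested, of which 4 were higher, 2 lower and 2 not called, with a median log2 fold change of 0.32 against 0 for all genes. Only 4 of the 8 passed the low-count filter in all 6 libraries. Over all tested genes, 28.8% were called higher and 28.6% lower. Gbp2b (also known as Gbp1), in the chromosome 3 cluster, had 6, 1 and 7 counts in shNC and 28, 26 and 19 in shTrem2, a log2 fold change of 2.21 (SE 0.488, FDR = 0.00155). It passed the filter only through shTrem2, so it had to differ. Gbp8 went the other way. It had 29, 46 and 39 counts in shNC and 8, 12 and 11 in shTrem2, without overlap, and a log2 fold change of -2.00 (SE 0.325, FDR = 1.36e-04). Gbp8 passed the filter in 3 shNC and 2 shTrem2 libraries. Irgq, a divergent family member, was lower too (43.4 ± 0.685 against 27.2 ± 3.97 CPM, log2 fold change -0.67, FDR = 2.23e-05). The IRG-like genes Gm5431 (0.46), 9930111J21Rik1 (0.36) and 9930111J21Rik2 (0.28) were higher by log2 fold changes under that of Gbp9, and 15.1%, 57.7% and 36.1% of their windows were shared with another gene. Gbp6 (log2 fold change 0.90, FDR = 0.0772) and Tgtp2 (0.29, FDR = 0.65) were not called, and 76.5% and 71.7% of their windows were shared with another gene. Tgtp2, whose GAS and ISRE cores are printed above beside those of Igtp, had 5, 12 and 12 counts in shNC and 23, 7 and 9 in shTrem2. Gbp10 was not tested: it had 0 counts in the 3 shNC libraries and 7, 11 and 12 in shTrem2, at least 8.85-fold higher against a floor of 3 counts over the group, with 63.2% of its windows shared. Gbp4 had 7, 16 and 12 counts in shNC and 5, 8 and 6 in shTrem2, and was not tested either.

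**Figure D4:**
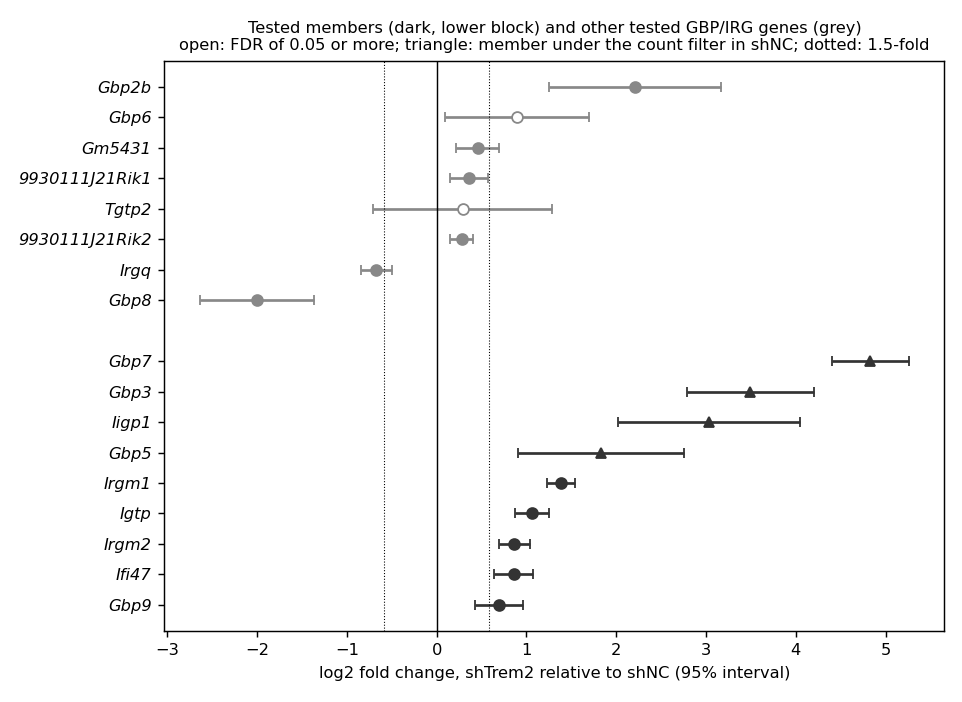
Log2 fold change of shTrem2 relative to shNC (x axis) with its 95% interval, for the 9 tested members (dark) and the 8 other tested GBP and IRG genes (grey). Members range from 0.70 (Gbp9) to 4.83 (Gbp7), and triangles mark the 4 members under the filter in shNC libraries, while Gbp8 (-2.00) and Irgq (-0.67) lie under 0.

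Along the chromosomes, in the gene order of RefSeq (GRCm38.p6), Gbp5, Gbp7, Gbp3, Gbp2b and Gbp2 follow each other on chromosome 3. Each of these 5 genes was higher in every shTrem2 library, as were 32.1% of all tested genes. Gbp5, Gbp7, Gbp3 and Gbp2b passed the filter only through shTrem2, so they had to differ, and Gbp2 was not tested. The nearest tested genes on one side, Pdlim5 and Rap1gds1, had log2 fold changes of 0.01 (FDR = 0.893) and -0.04 (FDR = 0.556), and those on the other side, Kyat3 and Gtf2b, were higher by 0.65 (FDR = 0.00243) and 0.31 (FDR = 0.00363). In the chromosome 5 cluster Gbp8 (-2.00) lies next to Gbp9 (0.70), so adjacent paralogs were called in opposite directions. Gbp8 was near the low-count filter in shTrem2, where 2 libraries passed it. Irgm1 on chromosome 11 has Trim7 as its nearest tested neighbour on one side, which was lower (log2 fold change -2.28, FDR = 2.08e-08). Igtp and Irgm2, a neighbouring pair, lie between Mrpl22 (0.01, FDR = 0.892) and Zfp692 (-0.80, FDR = 2.46e-06).

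Genes that signal to or accompany these GTPases were described by lists. Interferon-gamma itself (Ifng) was at 0 counts in all 6 libraries, and interferon-beta (Ifnb1) had 2, 0 and 0 counts in shNC and 2, 0 and 1 in shTrem2. Both are at or under the limit of 3 counts per library. Of the 19 tested receptors, kinases and transcription factors of interferon signalling, 7 were higher and 5 lower, with a median log2 fold change of 0.14. Over all tested genes, 28.8% were higher and 28.6% lower. Irf1, which drives many GBP genes, had 336, 424 and 399 counts in shNC and 468, 489 and 446 in shTrem2, with overlapping CPM and no call (log2 fold change 0.14, FDR = 0.163). Usp18, an interferon-induced brake on type I receptor signalling, was higher (1.01), while the kinases Jak2 (-1.24) and Tyk2 (-0.92), the myeloid factor Irf8 (-0.95) and the MHC class I activator Nlrc5 (-0.79) were lower.

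Of 28 tested genes chiefly induced by type I interferon, 26 were higher and 2 lower (Bst2, log2 fold change -0.49, and Isg20, -0.45), with a median of 0.90. The antiviral RNA-binding proteins Ifit3b (4.05), Ifit3 (3.32) and Ifit1 (3.31) led, followed by the nucleotide kinase Cmpk2 (2.67), Oasl2 (2.09) and Herc6 (1.89). Ifit3b, with 6, 0 and 5 counts in shNC, passed the low-count filter only through shTrem2, so it had to differ. Ifit1, for example, had 36, 27 and 41 counts in shNC and 392, 420 and 329 in shTrem2. Of the 15 tested genes chiefly induced by interferon-gamma, 5 were higher and 6 lower, beside 28.8% higher and 28.6% lower over all tested genes, with a median of -0.23. Acod1, which makes itaconate, was lower by a log2 fold change of -3.02 (7262, 8231 and 7826 counts in shNC and 1029, 863 and 1293 in shTrem2), as were Nos2 (-1.69), which makes nitric oxide, and the MHC class II genes H2-Ab1 (-1.62), H2-Aa (-1.32) and Cd74 (-1.21), while the chemokine Cxcl10 was higher (1.20). H2-Aa had 11, 23 and 12 counts in shNC and 3, 9 and 8 in shTrem2, and H2-Ab1 20, 25 and 20 against 11, 7 and 5. Both passed the filter only through shNC, so they had to be lower. Acod1 and Nos2 can also be induced by other inflammatory signals. A difference between these lists was not tested.

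Other large proteins that interferon induces were also higher in part. The list held large GTPases and Rnf213, which is not a GTPase. Of 4 tested, Mx2 (log2 fold change 1.51), Mx1 (1.44) and Rnf213 (0.55) were called. The GTPase Gvin2 was not (-0.01, FDR = 0.855), and the median of the 4 genes was 0.99. The ATG8 conjugation and vacuole-marking genes, which direct IRGs and GBPs to vacuoles, went both ways, with 8 of 15 higher, 5 lower and a median of 0.19. The antibody receptor and ubiquitin ligase Trim21 was higher by 1.95 and the conjugating enzyme Atg3 by 0.49, while Gabarapl1 (-0.61), Map1lc3a (-0.54), Atg12 (-0.43) and the autophagy receptor Sqstm1 (-0.39) were lower. Of 8 tested inflammasome genes, 4 were higher, namely the adaptor Pycard (1.45, from 6, 4 and 4 to 12, 14 and 17 counts), Nlrp3 (0.59), Nlrp1b (0.38) and Gsdmd (0.32), and 2 were lower, Casp4 (-0.42) and Aim2 (-0.35). The median of the 8 was 0.25, and Pycard passed the filter only through shTrem2, so it had to differ. Of the 6 prenylation enzymes, which process the lipid tail of Gbp2 and Gbp5, Zmpste24 was higher (0.65) and Icmt lower (-0.22), with a median of -0.01. The counts of these lists are read beside 28.8% higher and 28.6% lower over all tested genes.

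**Figure D5:**
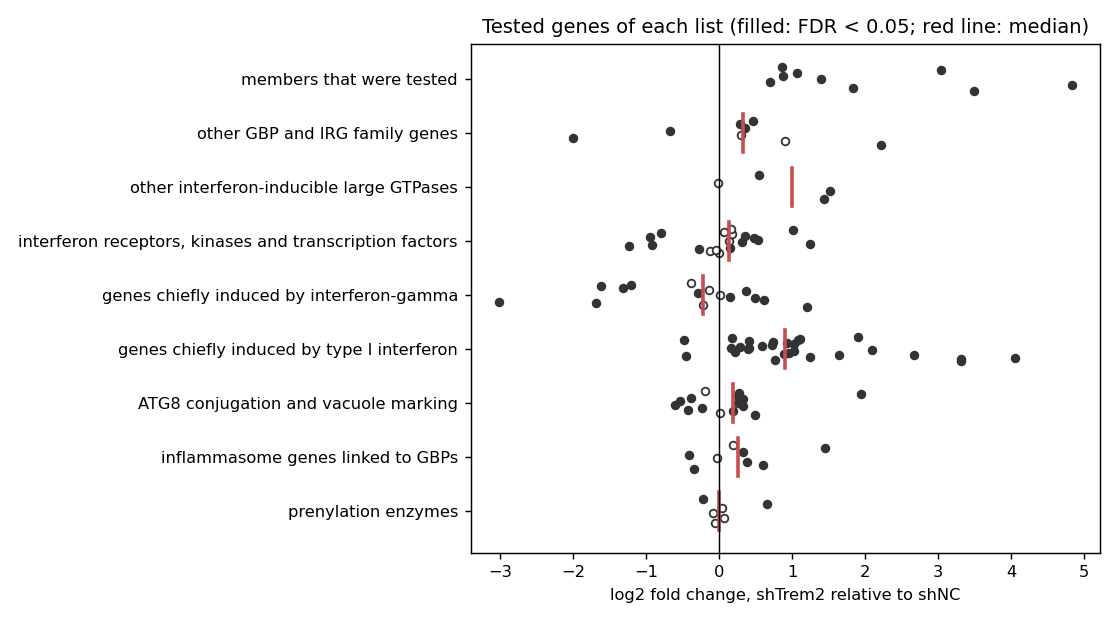
Log2 fold change of shTrem2 relative to shNC (x axis) for each tested gene of the members and of 8 other lists, with filled circles for an FDR under 0.05 and a red line at the median of each other list. The type I interferon list has its median at 0.90 and 26 of 28 genes called higher, while the interferon-gamma list spreads from -3.02 to 1.20. The list labelled large GTPases includes Rnf213, which is not a GTPase.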

How the data were processed

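RNA-seq libraries of RAW264.7 cells (3 shNC, 3 shTrem2) were grouped by the shRNA in their titles. Per the study's methods and the submitters' processing notes, fastp trimming, HISAT2 alignment and StringTie assembly were used by the authors, and the build named is GRCm39. The authors deposited estimated counts per transcript row (above 0, a share of 79.3% was fractional) and FPKM per gene. The counting tool and annotation release are not given in the sources used here. Estimated counts were summed per symbol (311 symbols had several gene identifiers) and rounded. Counts without a symbol (0.908% to 1.12%) were left out. The depth gives a limit of 0.155 to 0.186 CPM for 3 counts. Intervals and limits cover counting error only.

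CPM used TMM-scaled library sizes. Tests used edgeR 4.0.16 in R 4.3.3 (filterByExpr with a minimum count of 10, glmQLFit, glmQLFTest) without covariates, with Benjamini-Hochberg adjustment (FDR) over 13528 genes, and were tested on simulated data. Alternatives used DESeq2 1.42.0, limma 3.58.1, other scalings, filters and thresholds, each library left out, a replicate block, FPKM with pseudocounts of 1 and 0.1, an effective-length offset and sums over paralogs. The members and lists were chosen with earlier results of these data known. The text names the members, the tested family genes, Trem2, Irf1, Ifng, Ifnb1 and, of each other list, up to 6 called genes with the largest log2 fold change in size, and 1 gene of that rule is not reported here. Gbp4, Gbp10, Gvin2, Bst2, Isg20, marker genes and chromosomal neighbours were named beside that rule after their values were seen. Promoter sequences came from RefSeq (GRCm38.p6) and transcripts from GENCODE M21 (GRCm38), neither being the authors' build, and only for sequence, names and order.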

Additional observations from a re-analysis of the deposited data

How the results depend on the processing

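The 5 members past the filter in every library (Irgm1, Irgm2, Igtp, Ifi47 and Gbp9) were called higher in each alternative fit that required no fold. Members that were DEGs higher numbered 9 in the main fit, of which 4 (Gbp3, Gbp5, Gbp7 and Iigp1) passed the filter only through shTrem2. They numbered 8 by glmTreat against 1.5-fold and 6 on log2(FPKM + 1). They numbered 6 when a fold of 2 was required, which Irgm2, Ifi47 and Gbp9 did not reach. Gbp3, Gbp5, Gbp7 and Iigp1 were among these 6. The direction of Gbp3, Gbp5, Gbp7 and Iigp1 is set by how they passed the filter, and Gbp5 on log2(FPKM + 1) was the 1 case over the threshold (0.316, adjusted p of 0.0512). The lowest log2 fold changes of Gbp3 (1.44), Gbp7 (1.62) and Iigp1 (0.38) came on that scale, which understates the change of low genes by construction. With DESeq2, with no filter beyond 1 count and in 4 of the 6 fits with 1 library left out, Gbp2 was also called, for 10 members. In those 4 fits Gbp2 passed the filter only through shTrem2, so its direction was set by the filter. With at least 10 counts in every library, 5 members were called and 5 were DEGs, since 5 pass that filter, and 1 other family gene was called lower. DEGs higher numbered 852 on log2(FPKM + 1), 490 when a fold of 2 was required and 626 by glmTreat (1280 in the report), and DEGs lower 849 and 889 by these thresholds (1671 in the report). The median of the list of Mx1, Mx2, Gvin2 and Rnf213 was 0.592 on log2(FPKM + 1) and 0.799 on log2(FPKM + 0.1). It was 0.862 with the effective-length offset and 0.897 to 1.11 with 1 library left out. The ATG8 list had 5 genes higher on both FPKM scales, with medians of 0.067 and 0.07, and a median of 0.106 with the offset. The inflammasome list had 1 gene lower on both FPKM scales and with the offset, and medians of 0.147 on log2(FPKM + 1) and 0.177 with at least 10 counts. Of the prenylation enzymes, 0 were lower on both FPKM scales and with the offset, and 0 to 1 with 1 library left out (0 without shNC replicate 2, shTrem2 replicate 1 or shTrem2 replicate 2), and their median ran from -0.05 to 0.04, with the highest value without shTrem2 replicate 2. The cause of these moves was not tested. Scaling by library size alone put 39.0% of DEGs on the higher side in place of 43.4%, and the median over genes shifted by at most 0.034 in size under any scaling. Same-numbered libraries did not vary together (correlations of 0.0062, -0.0044 and 0.0066). These values cannot show whether same-numbered libraries were prepared together, which the labels do not say. With a replicate block, 9 members were called, Gbp3, Gbp5, Gbp7 and Iigp1 among them, and DEGs over all genes were 1264 higher and 1647 lower. Depth limits Gbp2, Gbp5 and Iigp1, and the shNC level of Gbp3 and Gbp7.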
